A study of Mus musculus with 24 samples.

Results

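The matrix metalloproteinases (MMPs) and their tissue inhibitors (TIMPs) were followed through a co-culture of macrophages with spleen lymphocytes. The 10 genes were taken by symbol from the deposited table of raw counts, which lists 55487 genes: Mmp2, Mmp8, Mmp9, Mmp12, Mmp13, Mmp14, Mmp19, Timp1, Timp2 and Timp3. All 10 were found, and all 10 were among the 14099 genes with enough counts to be tested.

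MMPs are zinc-dependent proteases that cut collagens, elastin, fibronectin and other matrix proteins, and also cytokines and receptors. Most are secreted as inactive precursors that another protease must open, and MMP14 stays anchored in the membrane, where it opens the precursor of MMP2 in a complex that needs TIMP2. TIMPs bind the active site and block it, so the balance of both families sets how much matrix is cut. Macrophages are known for MMP12, the macrophage elastase, and for MMP9 and MMP14, which they use to move through tissue.

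B16-F10-OVA is a melanoma line of the mouse made to express ovalbumin. Lymphocytes from the spleens of mice with B16-F10-OVA tumours were cultured with bone marrow-derived macrophages (BMDMs) that were wild-type (WT) or Tmem175-/-; Tmem175 encodes a lysosomal ion channel. Each genotype was kept without antigen, with B16-F10-OVA tumour cell antigen, with antigen and IL-1beta, or with antigen and IL-18, each cytokine at 500 pg/ml, and every one of the 8 groups has 3 libraries of poly(A) RNA. All groups share the lymphocytes of tumour-bearing mice, whose genotype the labels do not give. The labels do not say whether the 3 libraries of a group came from separate mice or cultures, so each p-value is set against library-to-library spread only, which may be technical. The titles name Tmem175-/-, but the genotype field names other genes for 11 of the 12 knockout samples; the groups here follow the titles.

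The libraries held 17744540 to 24898552 counts. Tmem175 was 24.4 to 26.1 CPM (counts scaled to a common library size) in WT without antigen and 14.1 to 15.0 in the knockout, and it was lower in the knockout in all 4 conditions (log2 fold changes -0.79 to -0.91), without overlap. The RNA comes from all cells of the culture, and only the BMDMs are named as knockout. The summed level of 10 macrophage markers was 13812 to 25709.7 CPM. T cell receptor complex genes were low: Cd3d averaged 1.23 CPM and Trac 1.48 CPM in WT without antigen, and the 6 B cell markers summed to 8.04 to 19.3 CPM over all libraries. In such bulk RNA, fewer cells of a type and less RNA per cell cannot be told apart.

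Without antigen Mmp12, which encodes the macrophage elastase (ENSMUSG00000049723, chromosome 9), stood far above the other members. Levels per kilobase divide by the longest transcript of each gene, 4474 bases for Mmp12. On that scale Mmp12 reached 1158 CPM per kilobase in WT, rank 32 of the 14099 tested genes, and 1664 in the knockout, rank 22. It made up 90.6% ± 0.359 (SD, n = 3) of the summed CPM per kilobase of the 7 MMPs in WT and 91.7% ± 1.36 in the knockout. This gene took 0.537% ± 0.00291 of all counts in WT and 0.732% ± 0.102 in the knockout. Next in WT, on the same per-kilobase scale, came Timp2 at 115, Mmp19 at 37.8, Mmp13 at 30.4, Mmp8 at 23.1, Mmp14 at 15.9 and Mmp9 at 11.9, and none of these neighbours overlapped over their 3 libraries. Timp1 at 4.73 and Timp3 at 3.33 overlapped each other, and Mmp2 was lowest at 0.479. The order was the same in the knockout except that Timp3 and Timp1 changed places; there Mmp19, Mmp13 and Mmp8 overlapped in turn, as did Timp3 and Timp1.

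**Figure D1:**
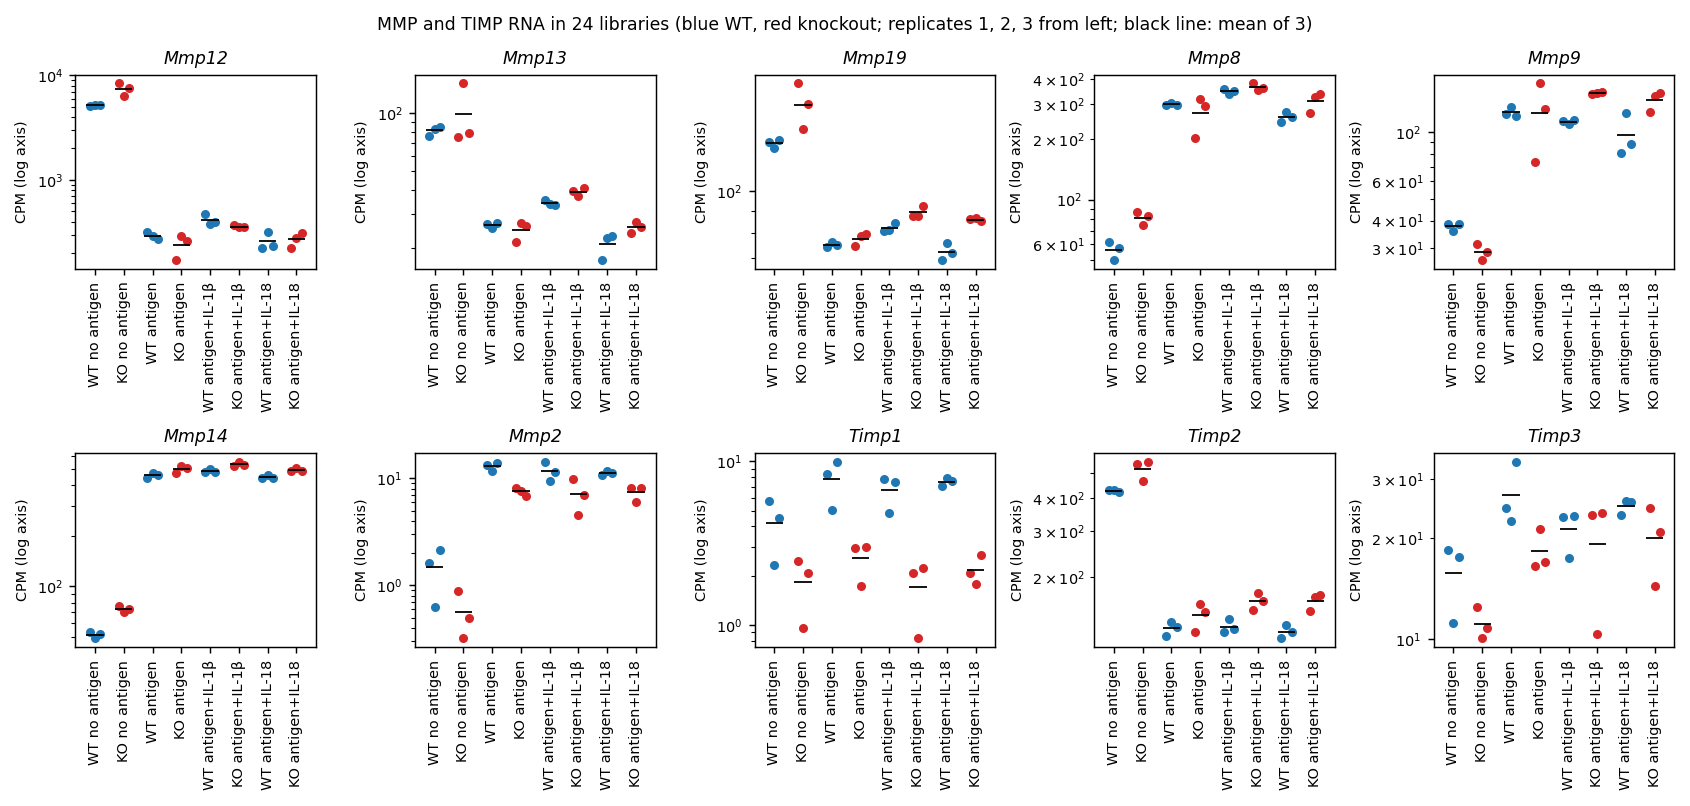
CPM on a log axis of the 10 genes in each of the 24 libraries, by group (blue WT, red knockout; points are replicates 1, 2 and 3 from left, black lines are means of 3). Mmp12, Mmp13, Mmp19 and Timp2 are high without antigen and low in all 6 antigen groups, Mmp2, Mmp8, Mmp9 and Mmp14 are the reverse, and Timp1 is low in the knockout.

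Tumour antigen changed this order. Per kilobase, Mmp14 came first in WT with antigen at 142 CPM, before Mmp8 at 123, Mmp12 at 65.5, Mmp9 at 38.7, Timp2 at 34.2 and Mmp19 at 22.1, again without overlap between neighbours. In the knockout Mmp14 at 154 and Mmp8 at 112 also led, and Mmp12 at 53.5, Mmp9 at 38.5 and Timp2 at 38.4 overlapped in turn. Among the 14099 tested genes Mmp12 went from rank 32 to 892 in WT and from 22 to 1155 in the knockout, and Mmp14 from 3430 to 389 and from 2578 to 358. Mmp14, Mmp8 and Mmp12 were the first 3 in all 6 antigen groups. This order divides by the longest transcript, 4474 bases for Mmp12, 3238 for Mmp14 and 2425 for Mmp8. Which transcripts were in use was not determined, and a shorter Mmp12 transcript would raise its level and place. Comparing antigen with no antigen asks what the macrophages and lymphocytes do when offered the tumour material, and it changed most of the transcriptome: 68.0% of tested genes passed the test in WT and 68.3% in the knockout (edgeR's quasi-likelihood test, Benjamini-Hochberg adjusted p under 0.05). All 10 members passed in WT, 6 higher and 4 lower, against 33.5% and 34.5% of all genes, and 9 passed in the knockout, 5 higher and 4 lower, against 33.8% and 34.6%. With so much of the transcriptome called, the counts say little about these genes, and the sizes are given gene by gene. Where groups did not overlap, this is a description, since the share of all genes without overlap was not counted. The members' median log2 fold change was 0.83 in WT and 0.59 in the knockout, beside medians of -0.00322 and 0.00573 over all tested genes.

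Mmp14, the membrane-anchored protease that activates MMP2 (ENSMUSG00000000957, chromosome 14), rose with little spread between libraries. Its WT libraries went from 53.6, 48.8 and 51.9 CPM to 443, 470.3 and 463 CPM, and the knockout libraries from 76.2, 70.4 and 73.4 to 474, 523 and 504. Every antigen library lay far above every library without antigen. The log2 fold change was 3.16 (SE 0.0451, adjusted p = 4.19e-29) in WT, 8.91-fold, and 2.77 (SE 0.0439, adjusted p = 5.95e-28) in the knockout, 6.82-fold.

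Mmp2, which encodes gelatinase A, the protease that MMP14 activates (ENSMUSG00000031740, chromosome 8), also rose. It went from 1.63, 0.627 and 2.16 CPM to 13.4, 11.8 and 13.8 CPM in WT, and from 0.884, 0.320 and 0.494 to 8.16, 7.65 and 6.88 in the knockout. The groups did not overlap. Its log2 fold change was 3.14 (SE 0.303, adjusted p = 2.76e-08) in WT and 3.72 (SE 0.395, adjusted p = 1.05e-07) in the knockout, but its libraries without antigen rest on 6 to 44 counts each.

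Mmp8, which encodes the collagenase best known from neutrophils (ENSMUSG00000005800, chromosome 9), rose from 61.1, 49.9 and 57.2 CPM to 294, 301 and 298 CPM in WT. In the knockout it went from 86.4, 74.6 and 83.0 to 203, 319 and 292. The groups did not overlap, and the lowest antigen library of the knockout, replicate 1, stood apart from the other two. The log2 fold changes were 2.41 (SE 0.134, adjusted p = 2.27e-11) and 1.74 (SE 0.129, adjusted p = 1.47e-09). Mmp9, which encodes gelatinase B (ENSMUSG00000017737, chromosome 2), rose from 38.6, 36.0 and 38.7 CPM to 120.4, 129 and 119 CPM in WT, and from 31.5, 26.5 and 28.8 to 73.2, 166 and 128 in the knockout. Replicate 1 of the knockout was again the lowest antigen library. The log2 fold changes were 1.70 (SE 0.218, adjusted p = 2.07e-06) and 2.07 (SE 0.224, adjusted p = 2.49e-07). Both proteases are stored by neutrophils. Of 13 neutrophil markers, all detected, 9 were lower with antigen in WT and 2 higher; their summed level went from a range of 1420.3 to 1574 CPM without antigen to a range of 886 to 989.9 with it. In the knockout 8 were lower and 4 higher, and the range went from 1492 to 1586 CPM to 919 to 967. Lcn2, named below as a partner of MMP9, is on this list. Of all tested genes 34.5% were lower with antigen in WT and 34.6% in the knockout. The part of neutrophil RNA in the changes of Mmp8 and Mmp9 was not tested.

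The macrophage elastase Mmp12 had the largest change of the 10 members, and it was a fall. Its libraries held 5126, 5234 and 5177 CPM in WT without antigen and 319, 288 and 272 CPM with it; in the knockout they held 8397, 6330.4 and 7611 without and 171, 289 and 258 with antigen. The log2 fold changes were -4.14 (SE 0.195, adjusted p = 2.46e-12) and -4.96 (SE 0.202, adjusted p = 3.15e-13), 17.7-fold and 31.1-fold lower. Mmp13, which encodes a collagenase that also cuts cartilage and bone matrix (ENSMUSG00000050578, chromosome 9), fell from 76.0, 82.9 and 85.0 CPM to 26.8, 25.4 and 27.0 CPM in WT, and from 75.2, 142 and 78.9 to 21.7, 27.0 and 26.1 in the knockout. The groups did not overlap. Its log2 fold changes were -1.63 (SE 0.191, adjusted p = 6.85e-07) and -1.99 (SE 0.189, adjusted p = 4.46e-08). Mmp19, a secreted MMP with a broad choice of matrix substrates (ENSMUSG00000025355, chromosome 10), fell from 125 to 131 CPM to 74.0 to 76.1 CPM in WT, and from 139 to 177 to 74.4 to 79.4 in the knockout. The log2 fold changes were -0.78 (SE 0.0547, adjusted p = 5.78e-13) and -1.03 (SE 0.0541, adjusted p = 8.81e-16). Mmp19 shares 789 exon bases with Tmem198b on the opposite strand, and whether counting used strand is not given in the sources used here; Tmem198b drew 4492 counts over all libraries and Mmp19 48408.

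Among the inhibitors, Timp2 (ENSMUSG00000017466, chromosome 11), which blocks MMPs and also carries the MMP2 precursor to MMP14, fell. It went from 429, 432 and 423 CPM to 119, 135 and 128 CPM in WT, and from 542, 468 and 554 to 123, 158 and 147 in the knockout. The ranges were far apart. The log2 fold changes were -1.75 (SE 0.0879, adjusted p = 1.31e-12) and -1.87 (SE 0.0876, adjusted p = 4.34e-13). Timp3 (ENSMUSG00000020044, chromosome 10), the inhibitor that binds to the matrix and also blocks ADAM proteases, rose by less, from 18.5, 11.1 and 17.6 CPM to 24.7, 22.5 and 33.8 CPM in WT and from 12.5, 10.1 and 10.8 to 16.5, 21.3 and 17.0 in the knockout, with log2 fold changes of 0.78 (SE 0.270, adjusted p = 0.0176) and 0.71 (SE 0.295, adjusted p = 0.0425). Timp3 lies inside Syn3, on the opposite strand, and shares 1733 exon bases with it. Syn3 drew 99 counts over all libraries beside 9966 of Timp3. Whether counting used strand is not given in the sources used here. Timp1 (ENSMUSG00000001131, chromosome X), a secreted inhibitor that binds the MMP9 precursor and blocks MMP14 poorly, went from 5.72, 2.32 and 4.48 CPM to 8.41, 5.07 and 9.96 CPM in WT. These ranges overlapped, and the log2 fold change of 0.89 (SE 0.328) passed with an adjusted p of 0.0228. In the knockout it went from 2.46, 0.959 and 2.07 to 2.93, 1.74 and 3.00, a log2 fold change of 0.48 (SE 0.442, adjusted p = 0.349). The calls on Timp1 and Timp3 hung on single libraries: in WT, Timp1 was lost without WT antigen replicate 1 (0.0595) or 3 (0.111) or WT replicate 2 without antigen (0.11), and Timp3 without WT antigen replicate 3 (0.0920) or WT replicate 2 without antigen (0.0862). In the knockout Timp3 was lost without any of 5 of the 6 libraries, with adjusted p up to 0.116; it held without antigen replicate 1. The summed level of 10 fibroblast markers was also higher with antigen, 149.9 to 228 against 42.6 to 131 CPM in WT and 59.3 to 68.0 against 19.1 to 40.2 in the knockout; its part in the changes of Timp1, Timp3 and Mmp2 was not tested.

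**Figure D2:**
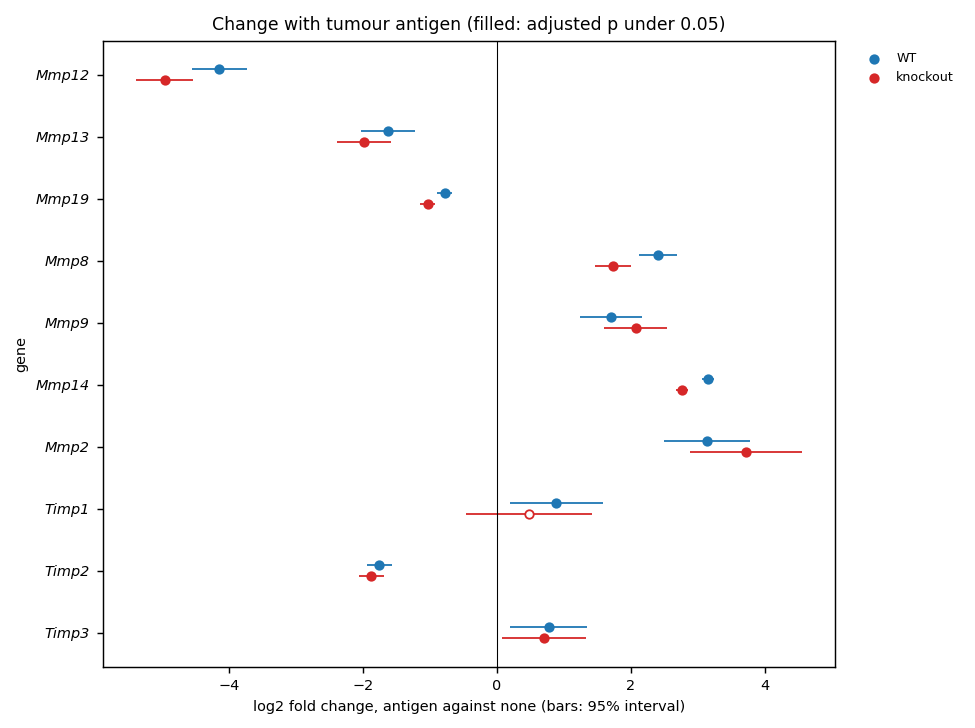
Log2 fold change of each gene with antigen against none, in WT (blue) and knockout (red) co-cultures; bars are 95% intervals, and filled points have an adjusted p under 0.05. Mmp12 lies at -4.14 and -4.96, Mmp2 and Mmp14 lie between 2.77 and 3.72, and only Timp1 in the knockout is open.

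The make-up of the family changed with it. Mmp12 went from 90.6% to 16.2% ± 1.30 of the per-kilobase RNA of the 7 MMPs in WT and from 91.7% to 13.5% ± 1.46 in the knockout. Mmp14 went from 1.24% ± 0.0672 to 35.0% ± 0.950 in WT and from 1.26% ± 0.114 to 39.8% ± 4.74 in the knockout, and Mmp8 from 1.81% ± 0.196 to 30.3% ± 0.287 and from 1.86% ± 0.100 to 28.2% ± 2.11. Mmp9 reached 9.56% ± 0.323 in WT and 9.56% ± 2.32 in the knockout. The summed level of the 7 genes was lower with antigen, 1277 ± 9.41 against 405 ± 5.04 CPM per kilobase in WT and 1813 ± 229.7 against 393 ± 62.6 in the knockout. The 6 MMPs other than Mmp12 together went the other way, from 119.7 ± 4.08 to 339 ± 6.83 in WT and from 149 ± 6.46 to 339 ± 48.9 in the knockout.

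The ratios of protease to inhibitor RNA followed. The 6 MMPs without Mmp12 stood at 0.970 ± 0.0280 times the summed level of the 3 TIMPs per kilobase in WT without antigen and at 6.98 ± 0.499 with it; the knockout had 1.04 ± 0.143 and 7.49 ± 0.314. With Mmp12 included the ratio was 10.4 ± 0.279 without antigen and 8.33 ± 0.656 with it in WT, and 12.5 ± 0.772 and 8.66 ± 0.503 in the knockout. The ratio of Mmp14 to Timp2, the pair that handles the MMP2 precursor, was 0.138 ± 0.00720 and 4.14 ± 0.138 in WT and 0.162 ± 0.0102 and 4.05 ± 0.328 in the knockout. Timp2 remained the most abundant inhibitor, but its share of the TIMP RNA went from 93.5% ± 2.15 to 70.4% ± 6.44 in WT and from 97.0% ± 0.549 to 84.9% ± 1.94 in the knockout. These are ratios of RNA per length, with no test, and say nothing of protein or activity. The shares and ratios that include Mmp12 also depend on its longest transcript being the one in use.

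**Figure D3:**
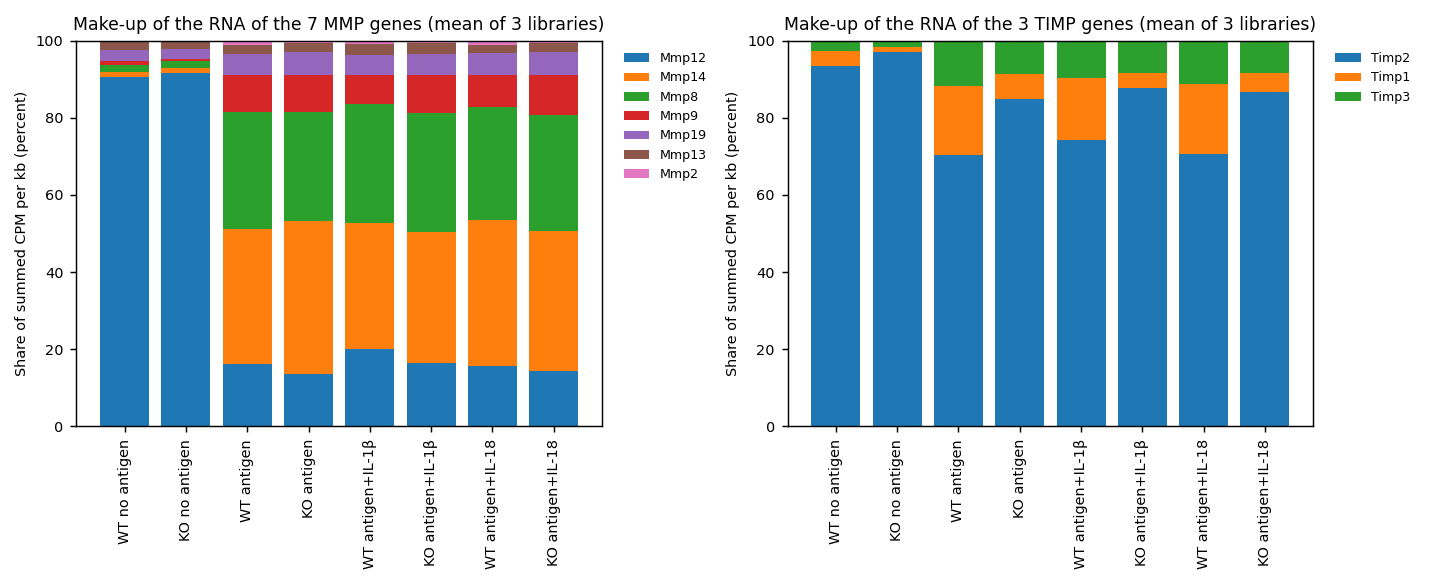
Share of each gene in the summed CPM per kilobase of the 7 MMPs (left) and the 3 TIMPs (right) in each group, as the mean of 3 libraries. Mmp12 fills 90.6% and 91.7% of the left bars without antigen and 13.5% to 20.1% with antigen, and Timp1 takes a larger part of the WT bars than of the knockout bars on the right.

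Genes of one row on chromosome 9 went opposite ways. In RefSeq's GRCm38.p6 annotation, 10 MMP genes follow one another on chromosome 9 with no other protein-coding gene between them, in the order Mmp13, Mmp12, Mmp1b, Mmp3, Mmp1a, Mmp10, Mmp8, Mmp27, Mmp20 and Mmp7. Mmp12 and Mmp13 are neighbours and fell with antigen, and Mmp8 in the same row rose. The 4 genes between Mmp12 and Mmp8 were almost silent, with 0 counts of Mmp1b, 231 of Mmp3, 2 of Mmp1a and 135 of Mmp10 over all 24 libraries. Mmp27, next to Mmp8, drew 17204 counts. It rose with antigen in WT by 0.29 on the log2 scale (SE 0.0579, adjusted p = 6.55e-05), and in the knockout the change was 0.09 (SE 0.0535, adjusted p = 0.140).

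AP-1, the family of Fos, Jun and Batf factors, is the classic regulator of several MMP promoters. RefSeq's table of promoters (GRCm38.p6) matched 7 of the 10 members, Mmp8, Mmp12, Mmp13, Mmp14, Timp1, Timp2 and Timp3, with 2 start sites for Mmp12. The 250 bases before each start were searched for the AP-1 letters TGANTCA, which read the same on both strands. Of the 7 genes, Mmp12, at 1 of its 2 start sites, and Mmp13 held a match, TGAGTCA 44 bases and TGACTCA 35 bases before the start, beside 6.75% of all 32851 promoters. The NF-kB consensus (in 45.8% of promoters) was found at the first start site of Mmp12 and, more than once, in Timp1 and Timp3, with overlaps between the matches in Timp1; the interferon response element (2.98%) was found in Mmp13, and TTCNNNGAA (7.02%) and CACGTG (6.02%) in none of the 7, all searched on both strands. The pair with an AP-1 match and the pair that rose most among those matched are shown for comparison, 5′ to 3′ on the + strand, with the AP-1 letters in capitals; a match is a description of the letters and not a bound site.
Mmp12, start site 2, chr9:7347124-7347373: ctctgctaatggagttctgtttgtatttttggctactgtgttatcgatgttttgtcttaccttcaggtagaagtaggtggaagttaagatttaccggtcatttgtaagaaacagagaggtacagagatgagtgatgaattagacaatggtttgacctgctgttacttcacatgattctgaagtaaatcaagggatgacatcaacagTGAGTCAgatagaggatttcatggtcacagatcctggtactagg
Mmp13, chr9:7272264-7272513: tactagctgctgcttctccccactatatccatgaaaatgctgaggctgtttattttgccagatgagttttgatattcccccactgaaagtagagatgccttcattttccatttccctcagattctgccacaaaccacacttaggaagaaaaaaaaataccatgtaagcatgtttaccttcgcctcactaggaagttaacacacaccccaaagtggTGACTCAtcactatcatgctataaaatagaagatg
Mmp8, chr9:7558179-7558428: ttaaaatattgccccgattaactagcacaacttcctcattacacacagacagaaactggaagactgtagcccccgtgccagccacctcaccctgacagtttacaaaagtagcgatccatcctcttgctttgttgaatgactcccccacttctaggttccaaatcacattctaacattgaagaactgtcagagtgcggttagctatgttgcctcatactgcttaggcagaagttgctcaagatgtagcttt
Mmp14, chr14:54431348-54431597: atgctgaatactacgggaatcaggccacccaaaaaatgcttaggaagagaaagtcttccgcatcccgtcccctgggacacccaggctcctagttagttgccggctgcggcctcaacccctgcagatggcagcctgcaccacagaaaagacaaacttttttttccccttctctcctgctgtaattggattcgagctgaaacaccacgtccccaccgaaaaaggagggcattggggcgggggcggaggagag

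The AP-1 and ETS factors themselves mostly rose with antigen: 9 of the 11 tested were higher and 1 lower in WT, with a median log2 fold change of 1.12, and 8 were higher and 2 lower in the knockout, with a median of 0.98. Of all tested genes 33.5% were higher and 34.5% lower in WT, and 33.8% and 34.6% in the knockout. Batf, an AP-1 factor of immune cells, rose by 2.50 (SE 0.160) in WT and 2.43 (SE 0.157) in the knockout on the log2 scale, Ets2 by 2.23 (SE 0.108) and 2.57 (SE 0.112), Fosl2 by 1.68 (SE 0.0746) and 1.52 (SE 0.0744), and Ets1 by 1.32 (SE 0.105) and 1.24 (SE 0.108). Mmp13, and Mmp12 with the AP-1 letters at 1 of its 2 start sites, were lower in the same libraries. The part of these factors in the members' changes was not tested.

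Genes that open or hold MMPs are given next, beside 68.0% of all tested genes called with antigen in WT and 68.3% in the knockout. Counts near these shares say little about a list. Of the 12 genes of MMP activation and the plasminogen system 6 were tested, and in each genotype 3 were higher and 2 lower with antigen, with median log2 fold changes of 0.66 in WT and 0.57 in the knockout. Plau, the urokinase that makes plasmin, fell by 3.20 (SE 0.137) in WT and by 2.70 (SE 0.133) in the knockout on the log2 scale. Serpinb2, which inhibits urokinase, rose by 5.32 (SE 0.196) and 6.74 (SE 0.252). Furin, the convertase that opens the MMP14 precursor, rose by 1.09 (SE 0.043) and 0.88 (SE 0.0432). Of 12 tested docking, stabilising and inhibiting partners 5 were higher and 3 lower in WT, with a median of 0.00320, and 4 were higher and 4 lower in the knockout, with a median of -0.17. Lcn2, which binds MMP9 and protects it, rose by 2.01 (SE 0.169) and 1.95 (SE 0.169), and Thbs1, a matrix glycoprotein that binds several MMPs, by 3.72 (SE 0.136) and 3.68 (SE 0.136). Lrp1, the receptor that clears MMP-TIMP complexes, fell by 0.99 (SE 0.0414) in the knockout.

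Among the other proteases, 7 of 13 tested ADAM and ADAMTS genes were higher and 2 lower in WT with antigen, with a median of 0.32, and 4 were higher and 3 lower in the knockout, with a median of 0.55. Of all tested genes 33.5% were higher and 34.5% lower in WT, and 33.8% and 34.6% in the knockout. Adam15 rose by 1.01 (SE 0.0412) and 0.90 (SE 0.0411), and Adamts1, a protease that cuts versican, fell by 2.58 (SE 0.221) and 2.68 (SE 0.242). Of 13 tested matrix substrates 8 were higher and 2 lower in WT, with a median of 1.00, and 4 were higher and 2 lower in the knockout, with a median of 0.94. Versican, Vcan, rose by 4.36 (SE 0.188) and 4.61 (SE 0.206), and osteopontin, Spp1, a substrate of MMP12, fell by 3.51 (SE 0.185) and 3.93 (SE 0.188). Of 17 further genes, the other MMPs and Timp4, 7 were tested, of which 3 were higher and 1 lower in WT, with a median of 0.38, and 2 higher in the knockout, with a median of 1.20. Both medians are the value of Mmp23, which did not pass and was near the floor. It went from 0.36 to 0.48 CPM in WT and from 0.085 to 0.19 in the knockout. The 7 members that are MMPs made up 98.9% ± 0.0391 of all MMP RNA per kilobase in WT without antigen and 95.6% ± 0.0615 with it.

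Macrophages that fuse or turn towards osteoclasts are known for tissue-cutting proteases, and osteoclast markers were low where Mmp12 and Timp2 were low. Of 9 osteoclast genes 7 were tested, and 5 were lower and 1 higher with antigen in WT and 6 lower and 1 higher in the knockout. Itgb3, which is among them, is also on the list of docking partners. Their summed level was 1479 to 1494 CPM in WT without antigen and 396 to 409.6 with it, and 1814 to 2141 and 466 to 569 in the knockout. All 9 were detected, and their part in the fall of Mmp12 and Timp2 was not tested. Of all tested genes 34.5% were lower with antigen in WT and 34.6% in the knockout. Over the 24 libraries the genes whose log2 CPM ran closest to Timp2 were Trem2 (Pearson r = 0.997), Crip1 (0.997) and Atp6v0d2 (0.996), the last a subunit of the osteoclast proton pump. For Mmp12 they were Anxa3, Aplp2 (both 0.994) and Dnajb14 (0.993), and for Mmp14 Gm5150, Gde1 and Pilra (all 0.997). For Mmp8 they were Acpp, Emb and Sgms2 (0.987 to 0.992), for Mmp9 Hexim1, Pf4 and H2-M2 (0.973 to 0.977), for Mmp13 Cyp4v3, Homer1 and Tbxas1 (0.961 to 0.964) and for Mmp19 Akr1a1, Dio2 and Stac2 (0.983 to 0.986). The 24 libraries share that step between no antigen and antigen, so these values only describe likeness.

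The genotype comparisons ask whether macrophages without Tmem175 shift the family, and they use the same libraries as the antigen comparisons. Without antigen 5 of the 10 members were higher in the knockout and none lower, where 16.9% of tested genes passed, 9.62% higher and 7.25% lower. The median log2 fold change of the members was 0.28, beside 0.00620 over all genes. Mmp14 was higher with 76.2, 70.4 and 73.4 CPM against 53.6, 48.8 and 51.9 in WT, a log2 fold change of 0.51 (SE 0.0448, adjusted p = 1.47e-09). Mmp19 was higher with 177, 139 and 159 CPM against 129, 125 and 131, a log2 fold change of 0.30 (SE 0.0527, adjusted p = 0.000136). In both cases the groups did not overlap. The share of all genes without overlap between genotypes was not counted. Here and in the genotype comparisons below, lack of overlap therefore adds nothing to the tests.

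Mmp8 was higher by 0.54 (SE 0.135, adjusted p = 0.01), Mmp12 by 0.52 (SE 0.171, adjusted p = 0.0446) and Timp2 by 0.28 (SE 0.0837, adjusted p = 0.0245) on the log2 scale, also without overlap. The Mmp12 and Timp2 calls were each lost without any of 5 of the 6 libraries, with adjusted p up to 0.164 and 0.11, and held without knockout replicate 2, which was the lowest knockout library for both. The Mmp8 call was lost without WT replicate 2 (0.0516). The Mmp19 call was lost when only the compared libraries were fitted (0.0800), and the Mmp14 call held in every alternative. Knockout replicate 2 was also the library that set Mmp13 apart: it held 142 CPM against 75.2 and 78.9, and the Mmp13 log2 fold change of 0.28 (SE 0.169, adjusted p = 0.324) became -0.08 without it. Mmp9 was 31.5, 26.5 and 28.8 CPM against 38.6, 36.0 and 38.7, a log2 fold change of -0.38 (SE 0.241, adjusted p = 0.337) without overlap, and it passed when only the compared libraries were fitted (0.00138). Mmp2 was 0.884, 0.320 and 0.494 CPM against 1.63, 0.627 and 2.16, a log2 fold change of -1.36 (SE 0.553, adjusted p = 0.11) with overlap; it passed without WT replicate 2 (0.0303) and with DESeq2's Wald test (0.00171).

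With antigen 3 members passed, Mmp14 higher and Timp1 and Mmp2 lower, where 15.3% of tested genes passed, 7.70% higher and 7.62% lower. The members' median log2 fold change was -0.11, beside 0.00415 over all genes. Timp1 was 2.93, 1.74 and 3.00 CPM in the knockout against 8.41, 5.07 and 9.96 in WT, a log2 fold change of -1.58 (SE 0.349, adjusted p = 0.00439), which is 2.99-fold lower. Mmp2 was 8.16, 7.65 and 6.88 CPM against 13.4, 11.8 and 13.8, a log2 fold change of -0.78 (SE 0.225, adjusted p = 0.0247). Mmp14 was 474, 523 and 504 CPM against 443, 470.3 and 463, a log2 fold change of 0.12 (SE 0.0400, adjusted p = 0.0326). None of the 3 overlapped between genotypes, which describes the libraries and adds nothing to the tests. The Mmp2 call was lost without any of 5 of the 6 libraries (adjusted p up to 0.0926; it held without WT replicate 2). The Mmp14 call was lost without knockout replicate 2 (0.154) or 3 (0.0933), without WT replicate 1 (0.152) or 3 (0.0684), and when only the compared libraries were fitted (0.0742). Timp2, at 0.16 (SE 0.0877, adjusted p = 0.246), passed as higher without knockout replicate 1 (0.0361).

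With antigen and IL-1beta 3 members passed, 2 higher and 1 lower, where 13.8% of genes passed, 7.22% higher and 6.55% lower; the members' median was 0.09, beside 0.00430 over all genes. Timp1 was 2.09, 0.826 and 2.21 CPM in the knockout against 7.82, 4.81 and 7.53 in WT, a log2 fold change of -1.96 (SE 0.388, adjusted p = 0.002). Timp2 was higher by 0.32 (SE 0.0873, adjusted p = 0.0176) and Mmp14 by 0.13 (SE 0.0399, adjusted p = 0.0219). Both of these calls were lost without WT replicate 1 or 3 or knockout replicate 2, with adjusted p up to 0.0894 for Timp2 and 0.132 for Mmp14. Mmp2 had a log2 fold change of -0.70 (SE 0.231, adjusted p = 0.0518), and its groups overlapped; it passed without WT replicate 2 (0.0321) or knockout replicate 1 (0.00666) and with DESeq2's Wald test (0.0199).

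With antigen and IL-18 4 members passed, 3 higher and 1 lower, where 20.2% of genes passed, 9.89% higher and 10.3% lower; the members' median was 0.19, beside 0.00531 over all genes. Timp1 was 2.08, 1.77 and 2.68 CPM in the knockout against 7.04, 7.92 and 7.56 in WT, a log2 fold change of -1.76 (SE 0.361, adjusted p = 0.00213). Timp2 was 147, 167 and 169.9 CPM against 116, 131 and 123, a log2 fold change of 0.39 (SE 0.0875, adjusted p = 0.00386). Mmp19 was 85.8, 86.3 and 84.9 CPM against 69.1, 75.8 and 71.8, a log2 fold change of 0.25 (SE 0.0555, adjusted p = 0.00218). Mmp14 was higher by 0.14 (SE 0.0400, adjusted p = 0.0113), a call lost without WT replicate 3 (0.0632) or knockout replicate 2 (0.0654). None of the 4 overlapped, again only a description. Mmp9, with 123, 146 and 149.9 CPM against 80.5, 122 and 88.9, had a log2 fold change of 0.52 (SE 0.200, adjusted p = 0.0793); it passed without WT replicate 2 (0.0279) and with DESeq2's Wald test (0.042).

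**Figure D4:**
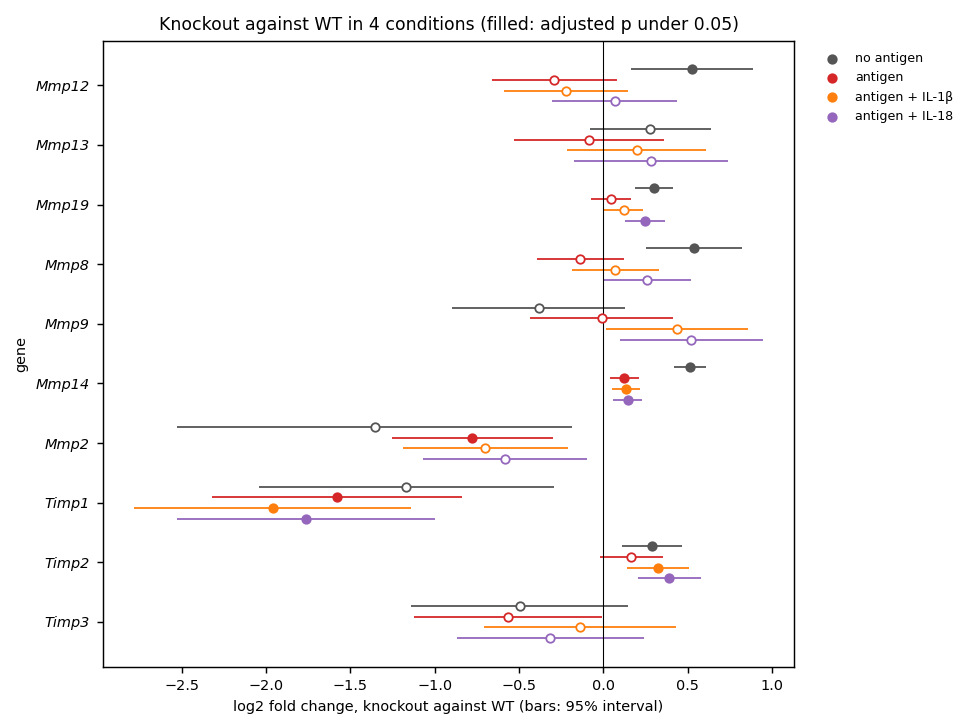
Log2 fold change of knockout against WT for each gene in the 4 conditions; bars are 95% intervals, and filled points have an adjusted p under 0.05. Timp1 lies between -1.17 and -1.96 in all conditions, and Mmp14 lies at 0.51 without antigen and between 0.12 and 0.14 in the antigen groups.

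Timp1's share of the TIMP RNA per kilobase ran from 12.3% to 21.3% in WT with antigen and from 4.02% to 8.32% in the knockout, from 11.8% to 18.9% and from 1.88% to 4.96% with IL-1beta, and from 18.04% to 18.2% and from 3.996% to 5.71% with IL-18. Without antigen Timp1 was 2.46, 0.959 and 2.07 CPM against 5.72, 2.32 and 4.48, a log2 fold change of -1.17 (SE 0.412, adjusted p = 0.0629) with overlapping groups; it passed without WT replicate 2 (0.0182). Timp1 lies inside Syn1, a gene on the opposite strand, with no shared exon bases; Syn1 drew 4407 counts over all libraries and Timp1 2176.

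Fibroblast markers moved with Timp1 and Mmp2, and Timp3 followed only in part. With IL-1beta Timp3 averaged 19.2 CPM in the knockout and 21.3 in WT, with overlap. There the 10 fibroblast markers summed to means of 53.4 and 159 CPM. The 10 markers, all detected except Lum, which was at 0 in the knockout without antigen, summed to 42.6 to 131 CPM in WT without antigen and 19.1 to 40.2 in the knockout, to 149.9 to 228 and 59.3 to 68.0 with antigen, to 112 to 183 and 28.0 to 71.9 with IL-1beta, and to 174 to 188 and 41.9 to 84.3 with IL-18. In the knockout 6 of 10 passed as lower without antigen and 7 of 10 in each antigen condition, with none higher; with antigen 6 were higher in WT and 5 in the knockout, with none lower. The genes closest to Timp1 over the 24 libraries were Sparc (r = 0.978), Col1a2 (0.977) and Aebp1 (0.973), to Timp3 Mylk (0.959), AI504432 (0.887) and Igfbp7 (0.872), and to Mmp2 Slc39a4 (0.985) and Inhba (0.982). The libraries numbered 2 were the lowest of their group for Timp1 in 7 of 8 groups and for Mmp2 and Timp3 in 6 of 8. The part of fibroblast RNA in these 3 genes' differences was not tested.

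**Figure D5:**
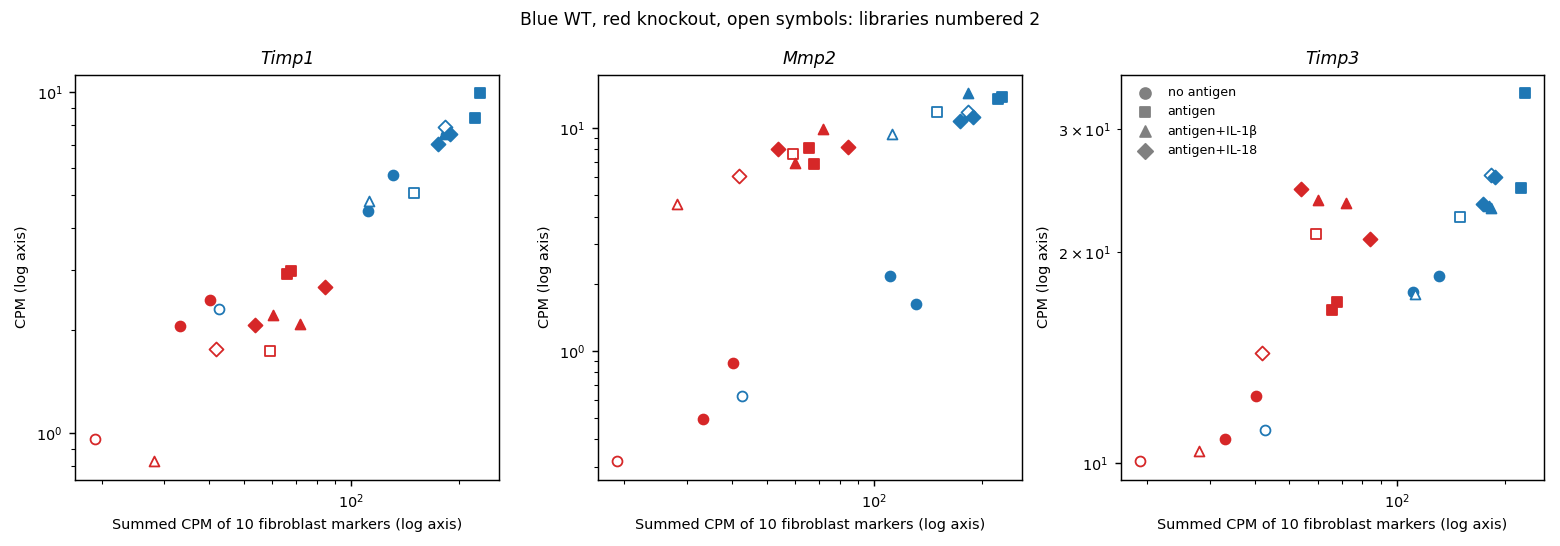
CPM of Timp1, Mmp2 and Timp3 against the summed CPM of 10 fibroblast markers, both on log axes, 1 point for each of the 24 libraries (blue WT, red knockout, shape by condition, open symbols for libraries numbered 2). Timp1 runs with the marker sum from 19.1 to 228 CPM across groups, while Mmp2 splits into libraries with and without antigen.

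Without the 8 libraries numbered 2, left out together after these values had been seen, the log2 fold change of Timp1 between knockout and WT was -1.18 without antigen (adjusted p = 1.31e-05), -1.63 with antigen (4.45e-09), -1.84 with IL-1beta (4.61e-09) and -1.61 with IL-18 (2.50e-08). These libraries were the lowest of their group for Timp1, Mmp2 and Timp3 in most groups, so leaving them out can narrow the spread of these same genes. The adjusted p-values of this fit, with fewer libraries per group, are therefore a description and no added support. In it Mmp2 passed as lower in all 4 conditions, at -1.47 (0.00323), -0.86 (0.000102), -0.61 (0.00423) and -0.43 (0.0305). Timp3 passed without antigen, at -0.64 (0.00398), and with antigen, at -0.81 (0.000238); with all libraries its 4 values were -0.50, -0.56, -0.14 and -0.31, and none passed. The counts of members called were 6, 3, 4 and 5 in the 4 genotype comparisons, and 10 and 9 for antigen in WT and knockout; over all genes that fit called 2769, 2030, 1703 and 3059, and 9093 and 9333.

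Matrix genes were lower in the knockout alongside. Of 13 tested matrix substrates none was higher and 7, 10, 10 and 11 were lower without antigen, with antigen, with IL-1beta and with IL-18, with medians of -1.57, -1.84, -1.76 and -1.85. Of all tested genes 9.62%, 7.70%, 7.22% and 9.89% were higher and 7.25%, 7.62%, 6.55% and 10.3% lower, in the same order. Fibronectin, Fn1, was lower, at -2.05 (SE 0.265) with antigen, the basement membrane collagen Col4a1 at -2.19 (SE 0.315), Tnc at -2.16 (SE 0.389) and Postn at -2.35 (SE 0.475); Postn, Col1a1, Col1a2 and Col3a1 are on this list and among the 10 fibroblast markers. In the plasminogen system Plaur, the urokinase receptor, was higher in the knockout in all 4 conditions, by 0.29 (SE 0.0480), 0.43 (SE 0.0501), 0.34 (SE 0.0499) and 0.42 (SE 0.0502). Furin passed as lower in the 3 antigen conditions, at -0.25 (SE 0.0414), -0.20 (SE 0.0415) and -0.23 (SE 0.0415). Sparc, a matrix protein that is closest to Timp1 above, was lower, at -1.58 (SE 0.487) without antigen and -1.94 (SE 0.425), -1.86 (SE 0.448) and -1.91 (SE 0.430) with it. Mmp27, the neighbour of Mmp8, was higher by 0.57 (SE 0.0567) without antigen, 0.37 (SE 0.0546) with antigen and 0.27 (SE 0.0550) with IL-1beta; with IL-18 its value was 0.12 (adjusted p = 0.122). Counted in the 4 conditions in that order, 1, 1, 1 and 1 of the 6 tested genes of activation and plasminogen were higher and 2, 3, 3 and 3 lower. Of 12 tested docking and stabilising partners 3, 1, 1 and 1 were higher and 1, 4, 3 and 5 lower, of 13 ADAM and ADAMTS genes 3, 0, 0 and 0 were higher and 4, 7, 5 and 7 lower, of 11 AP-1 and ETS factors 2, 0, 0 and 1 were higher and 2, 0, 1 and 1 lower, and of the 7 other MMPs 1, 1, 1 and 0 were higher and 1, 0, 1 and 1 lower.

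Markers of the macrophages and of other cells moved with genotype too. The 10 macrophage markers, all detected, summed to 19277 to 19757 CPM in WT and 13812 to 14498 in the knockout without antigen, 24690.4 to 25649.9 and 15855 to 18420.4 with antigen, 25212.7 to 25709.7 and 18867.6 to 19477 with IL-1beta, and 23067 to 25481.8 and 17768.5 to 18900.4 with IL-18, without overlap. In the knockout 2 of the 10 passed as higher and 3 as lower without antigen, 2 and 1 with antigen, 2 and 1 with IL-1beta and 3 and 1 with IL-18, with medians of -0.10, -0.000766, 0.07 and 0.13, so the lower sums are not shared by most of the markers. The 9 plasma cell markers summed to 322 to 353 CPM over the WT libraries and 955 to 1597 over the knockout libraries, all detected. The 9 osteoclast markers summed to 396 to 405 CPM in WT and 542 to 568 in the knockout with IL-1beta, and to 379 to 383 and 542 to 555 with IL-18. Of the 13 neutrophil markers 9 were higher in the knockout with IL-1beta and 7 with IL-18, and their sums were 877 to 929 against 932 to 1165 CPM and 869.6 to 902 against 984 to 1212. Without antigen 1 was higher and 2 lower in the knockout, and with antigen alone 2 were higher and 0 lower. In these 2 conditions the sums overlapped, at 1420 to 1574 against 1492 to 1586 CPM and 886 to 989.9 against 919 to 967. The part of these markers in the members' differences was not tested.

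Whether the antigen response itself differed between genotypes was tested directly, as the knockout's log2 change minus that of WT. This comparison uses the same libraries as the 4 comparisons it is made of. It passed for 8.39% of genes, 3.79% higher and 4.60% lower, and for 4 of the 10 members, all lower; the members' median was -0.31, beside -0.00606 over all genes. Mmp14 rose by less in the knockout, a difference of -0.39 (SE 0.0600, adjusted p = 8.59e-05), and so did Mmp8, -0.67 (SE 0.182, adjusted p = 0.0295). Mmp12 fell further, -0.82 (SE 0.244, adjusted p = 0.0492), and so did Mmp19, -0.25 (SE 0.0766, adjusted p = 0.0376). All 4 began higher in the knockout without antigen, and with antigen Mmp8, Mmp12 and Mmp19 had genotype differences of -0.14 (SE 0.122), -0.29 (SE 0.175) and 0.05 (SE 0.0557) that did not pass. The Mmp14 difference held in every alternative. Leaving out 1 of the 12 libraries lost the Mmp12 call in 10 cases, the Mmp19 call in 9 and the Mmp8 call in 6, with adjusted p up to 0.114, 0.157 and 0.0798, and fitting only the compared libraries lost all 3, at 0.127, 0.172 and 0.147. For Timp1 the difference was -0.41 (SE 0.556, 95% interval -1.59 to 0.77) and for Mmp2 0.58 (SE 0.605, interval -0.70 to 1.86).

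Adding IL-1beta or IL-18 to antigen asks whether these cytokines, which macrophages release when inflammasomes fire, change the culture further; these comparisons share their antigen libraries. No member passed in any of the 4 comparisons, where few genes passed at all: 0.0567% of genes (8) for IL-1beta and 0% (0) for IL-18 in WT, and 0.0426% (6) and 0.213% (30) in the knockout. At an unadjusted p under 0.05 there were 1319, 580, 1882 and 1748 genes in the same order, and DESeq2's Wald test called 9, 1, 44 and 237 genes, among them Mmp8 for IL-1beta in the knockout (0.04). The members' medians were 0.05 and -0.14 in WT and 0.19 and 0.14 in the knockout, beside all-gene medians of 0.00156, -0.00127, 0.00278 and 0.00558. The 3 largest member values, none of them passing, were all with IL-1beta in the knockout: Mmp13, Timp1 and Mmp12. Timp1 was 2.09, 0.826 and 2.21 CPM against 2.93, 1.74 and 3.00 with antigen alone, a log2 difference of -0.60 (SE 0.449, adjusted p = 0.614) with overlap. Mmp13 was 35.5, 33.8 and 33.4 CPM with IL-1beta against 26.8, 25.4 and 27.0 with antigen alone in WT, and 39.5, 37.3 and 40.8 against 21.7, 27.0 and 26.1 in the knockout, log2 differences of 0.38 (SE 0.203, adjusted p = 0.589) and 0.66 (SE 0.201, adjusted p = 0.194). Mmp12 was 475, 377 and 398 CPM against 319, 288 and 272 in WT, and 367, 351 and 355 against 171, 289 and 258 in the knockout, differences of 0.51 (SE 0.174, adjusted p = 0.403) and 0.58 (SE 0.175, adjusted p = 0.194). For Mmp12 and Mmp13 the groups did not overlap in either genotype. The same held for Mmp8 and Mmp19, and in WT also for Mmp14 and for Mmp9, which was lower. The share of all genes without overlap was not counted, so this adds nothing to the tests. Mmp8 in the knockout, with 379, 352 and 361 CPM against 203, 319 and 292, had a difference of 0.43 (SE 0.122, adjusted p = 0.18); it passed without the knockout's antigen replicate 2 (0.0366). When only the compared libraries were fitted, Mmp8 and Mmp13 passed for IL-1beta in WT (both 0.0011) and Mmp13 in the knockout (0.0177).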

How the data were processed

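RNA of 24 co-culture libraries in 8 groups of 3 was read from 1 table of raw counts per gene as deposited by the authors. The submitters' processing notes name fastp and the GRCm39 build; the aligner, counter, annotation and use of strand are not given in the sources used here. Groups come from the sample titles, and the libraries held 17744540 to 24898552 counts. Replicates of a group differed by more than sampling noise (chi-square per degree of freedom 1.43 to 15.3), so none was merged.

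Counts were tested with edgeR 4.0.16 (R 4.3.3; limma 3.58.1): genes with low counts were removed by filterByExpr, which left 14099 genes with 99.9% of all counts, libraries were scaled by TMM, and 1 robust quasi-likelihood model was fitted to all 24 libraries with 16 residual degrees of freedom. Each of 11 comparisons was adjusted over all tested genes by Benjamini-Hochberg, with a threshold of 0.05; the standard error is the log2 fold change divided by the square root of F. CPM use TMM-scaled library sizes, and levels per kilobase divide by the longest transcript in GENCODE vM21. The fit was tested on simulated counts. DESeq2 1.42.0 served as an alternative. Symbols were matched by Ensembl ID in a table of gene names, and 346 gene IDs had no symbol. Promoters and gene order are from RefSeq on GRCm38.p6, another build than that of the counts.

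The members and lists were chosen with earlier results of these data known. Besides the 10 members and Tmem175, the text names from each list and comparison up to 4 called genes with the largest change among those whose groups did not overlap and whose average reached 2 log2 CPM, and for each member the 3 genes closest to it in Pearson r over 24 libraries. Where such a gene is named, its values in other comparisons may stand beside it. Marker lists of macrophages, fibroblasts, neutrophils, osteoclasts, plasma cells, T cells, B cells, dendritic cells, endothelial cells and melanoma cells were summed per library.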

Additional observations from a re-analysis of the deposited data

Results flagged for a closer look

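For 4 members the change with antigen differed between the genotypes by a test of the difference itself (edgeR's quasi-likelihood test of the knockout's log2 change minus that of WT), which passed for 8.39% of all tested genes. Mmp14 rose in both, and by less in the knockout, with a difference of -0.39 (adjusted p = 8.59e-05). Mmp8 also rose by less, with a difference of -0.67 (adjusted p = 0.0295). Mmp12 fell in both and further in the knockout, with a difference of -0.82 (adjusted p = 0.0492), and Mmp19 likewise, with a difference of -0.25 (adjusted p = 0.0376). All 4 started higher in the knockout without antigen. The Mmp14 difference held in every alternative. Leaving out 1 of the 12 libraries lost Mmp12 in 10 cases, Mmp19 in 9 and Mmp8 in 6, and fitting only the compared libraries lost all 3 (0.127, 0.172 and 0.147).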

How the results depend on the processing

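Another setting reversed no member value that had passed. Of the values that passed, 189 stayed past the threshold when 1 library was left out and 63 did not; under the other settings 212 stayed and 16 did not. Of those that had not passed, 7 passed with 1 library left out and 24 under other settings. Sign changes among values that passed in neither fit numbered 32 and 4. Calls that held in every alternative were the antigen responses of Mmp2, Mmp8, Mmp9, Mmp12, Mmp13, Mmp14, Mmp19 and Timp2 in both genotypes, Mmp14 without antigen and its difference in response, Timp1 between genotypes in the 3 antigen conditions, and Mmp19 and Timp2 with IL-18.

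With 1 library left out, the members called numbered 3 to 5 between genotypes without antigen, 1 to 3 with antigen, 1 to 4 with IL-1beta and 3 to 5 with IL-18, 8 to 10 and 8 to 9 for antigen in WT and knockout, 1 to 4 for the difference in response, 0 to 1 for IL-1beta in the knockout and 0 to 0 in the other cytokine comparisons. Over all genes, in the same order, they numbered 1651 to 2624, 1642 to 1939, 1321 to 1724, 1867 to 2562, 9189 to 9271, 9141 to 9414 and 819 to 1697; the cytokine comparisons gave 2 to 7 (IL-1beta) and 0 to 1 (IL-18) in WT and 1 to 284 and 0 to 233 in the knockout. Calls over all genes for IL-1beta and IL-18 in WT and then in the knockout were 79, 2, 287 and 302 without the filter on low counts. They were 46, 2, 7 and 0 with the compared libraries only, and DESeq2's Wald test gave 1 for IL-18 in WT and 44 and 237 in the knockout. Left without the libraries numbered 2, an alternative chosen after seeing the data, they were 22, 2, 288 and 561. Members called for IL-1beta in the knockout then numbered 2, and 1 without the filter, 1 with the compared libraries only and 1 with DESeq2. With the compared libraries only, 5 members passed between genotypes with IL-1beta, 1 for the difference in response and 2 for IL-1beta in WT, where 2008, 804 and 46 of all genes passed. DESeq2 gave no adjusted p for 9 member values in the cytokine comparisons.

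The replicate numbers were not taken as pairs: the labels give them no shared source, and no comparison had all 3 same-numbered pairs correlated above 0.1. All 30 correlations were positive, between 0.00157 and 0.229, those of number 2 were above 0.1 in 9 of 10 comparisons, and in 3 of 10 every library correlated best with its own number, a hint from the data and not the design. In the other comparisons 2 to 5 of the 6 libraries correlated best with their own number. With the replicate block the genotype comparisons without antigen, with antigen, with IL-1beta and with IL-18 gave 2876, 2636, 2372 and 3437 calls over all genes. Without the block they gave 2379, 2160, 1941 and 2851. With the replicate block the cytokine comparisons gave 102, 1, 422 and 274 calls over all genes, Timp1 passed without antigen (adjusted p = 0.00168), Mmp2 passed with IL-1beta (0.0110) and IL-18 (0.0217), and Mmp12 no longer passed without antigen (0.0509) or for the difference in response (0.0533). Without the filter on low counts Mmp12 between genotypes without antigen (0.0667) and Timp3 with antigen in the knockout (0.0745) did not pass. Depth limits Timp1, with 17 to 202 counts per library, and Mmp2 without antigen.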

Other observations

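Fibronectin stood apart among the matrix genes and is named here after its values were seen. Fn1 was lower with antigen, at -0.98 (SE 0.219) in WT and at -3.29 (SE 0.255) in the knockout on the log2 scale, and the difference in response was -2.31 (SE 0.338). Adam17, the sheddase that releases TNF, was lower in the knockout, at -0.13 without antigen, -0.10 with antigen, -0.12 with IL-1beta and -0.13 with IL-18 (SE 0.03 each). Summed markers of dendritic cells were 756 to 857 CPM in WT without antigen and 162 to 173 with it, and 1157 to 1295 and 135 to 204 in the knockout. Itgax and H2-Ab1 carried these sums, at means of 578 and 217 CPM in WT and 965 and 263 in the knockout without antigen. Of the 7 tested dendritic markers 1 was higher and 3 lower in the knockout without antigen (median -1.05), and with antigen 2 were higher and 3 lower in WT (median 0.28) and 3 and 3 in the knockout (median 0.83). Those of T cells were 139 to 160 and 20.9 to 22.5 CPM in WT and 109 to 120.1 and 21.0 to 25.3 in the knockout, where Cd28 alone averaged 135 and 8.21 CPM in WT and 104 and 6.51 in the knockout. Of the 8 T cell markers 1 was higher and 1 lower with antigen in WT (median 0.06), and 6 were higher and 1 lower in the knockout (median 0.58). Those of endothelial cells lay between 96.4 and 139 CPM and those of melanoma cells between 69.2 and 214 CPM over all libraries. Of the 7 melanoma markers only 1 had enough counts to be tested, so their sum cannot be read as melanoma RNA. It averaged 179 CPM in WT and 209 in the knockout without antigen, and 84.8 and 76.0 with antigen.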
